A study of Oryza sativa Indica Group with 18 samples.

Results

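Genes that carry names of DEAD-box RNA helicases were followed in rice seedlings before and during drought. The genes were taken by name: a RefSeq symbol or synonym had to read RH or OsRH followed by a number of 1 or 2 digits and at most 1 letter. Of the RefSeq genes, 7 carried such a name, and 4 of them had at least 1 probe set tied to that gene alone. These 4 genes are LOC4333273 (RH34), LOC4333678 (RH10, also called TOGR1), LOC4337589 (RH17) and LOC4324018 (synonym RH2), out of 17905 genes with a probe set of their own. They have 8 probe sets among the 57381 on the array, and each gene was read by its probe set of highest mean over all arrays. The other 3 genes, EIF4A3A (RH2), LOC4324051 (RH3) and LOC4338570 (RH1), had no probe set paired with them in the tables used and were not analysed here. All 8 probe sets passed the filter on low values.

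The samples were whole rice seedlings, 7 days old, of 2 indica cultivars, Dagad deshi and IR20, grown in nutrient solution without soil. Controls stayed in the solution for a further 6 h at 28 °C, and drought was given by laying seedlings of the same age on filter paper for 3 h or 6 h at that temperature. Each cultivar thus had a control, a 3 h and a 6 h group, with 3 Affymetrix arrays in each of the 6 groups and 18 in all. The arrays are labelled as biological replicates, but the labels do not say whether they came from separate cultures, so that p-values measure the spread between these arrays. The single control of each cultivar matches the 6 h group in its time in the experiment, not the 3 h group.

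DEAD-box proteins are ATP-dependent enzymes that clamp onto RNA, open short duplexes and remodel RNA-protein complexes, and they are named after an amino acid motif of their helicase core. In plants, as in yeast and animals, different members act in ribosome assembly, splicing, mRNA export, translation and RNA decay. RH34 and EIF4A3A (RH2) are the rice copies of eIF4A-III, the helicase that holds the exon junction complex on spliced mRNA. TOGR1 is a nucleolar helicase of rice that takes part in pre-ribosomal RNA processing and is required for growth in heat. RH17 has the number of an Arabidopsis helicase related to yeast Dbp7, a factor of large ribosomal subunit assembly.

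The name did not settle the identity of every gene. LOC4324018 on chromosome 1 shares the synonym RH2 with EIF4A3A on the same chromosome. Its annotated span is 761 bases, against 3528 for EIF4A3A, 4511 for RH34, 4747 for TOGR1 and 3579 for RH17. No description in the annotation used ties it to the helicase family, and only the name brought it in. It is described in paragraphs of its own and by its identifier. The counts of called genes below still include it, so they are counts of genes by name and not of helicases. Of the genes not analysed, LOC4324051 (RH3) and LOC4338570 (RH1) also had short spans, of 571 and 878 bases. For these genes too the name does not show that they belong to the family. RH34 and TOGR1 lie on chromosome 3 and RH17 on chromosome 5.

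Values are hybridisation intensities on a linear scale, and tests were made with limma on log2(intensity + 16), which understates the change of dim probe sets. A probe set was called at a Benjamini-Hochberg adjusted p under 0.05 over the 40094 probe sets tested. Control and drought arrays differed in an index of 3' to 5' signal, which RNA quality can shift. The 3'/5' index, the mean log2 ratio of 3' to 5' probe sets for 3 control transcripts, was 5.91 ± 1.77 (SD, n = 6) in controls and 2.27 ± 0.513 (SD, n = 12) under drought (two-sided exact permutation test, p = 5.39e-05, the smallest that 6 arrays against 12 allow). The highest indices were 8.88 in Dagad deshi control replicate 1 and 6.88 in IR20 control replicate 2. The part of the index in the changes below was not tested beyond a fit that held the index as a covariate, whose values are given beside the changes from control and, as counts, beside the lists. The index ran from 4.12 to 8.88 in controls and from 1.80 to 3.19 under drought, without overlap. That fit therefore extends a slope within groups over a gap that no array fills, and index and drought cannot be told apart by it. Of 7 drought marker genes, all rose in every comparison with a control, except that salT fell in IR20 at 3 h. In controls 6 of the 7 were higher in IR20 than in Dagad deshi (median log2 difference 2.81), and their summed intensity was 22173 to 30145 against 10702 to 17146. The responses of 6 of the 7 were smaller in IR20, with a median difference of -3.41 at 3 h and -2.63 at 6 h. The leaf markers CAB2R and rbcS were present on every array (lowest intensities 29751 and 10589), while RBCS1 lay at 8.15 to 14.4. The mean summed intensity of these 3 leaf markers was 78019, 68746 and 43320 in the control, 3 h and 6 h groups of Dagad deshi, and 71518, 66794 and 58521 in those of IR20. All 3 leaf markers, the dim RBCS1 included, fell in Dagad deshi at 6 h, 2 at 3 h, and 1 in IR20 at each time. Of all probe sets, 47.3% and 45.7% were called lower in Dagad deshi at 3 h and 6 h, and 21.9% and 25.5% in IR20. With the index in the fit, 2 leaf markers fell in Dagad deshi at 6 h, 1 at 3 h, and 1 in IR20 at each time. In that fit 21%, 21.2%, 20.7% and 24.4% of all probe sets were called lower, in the order of the shares above. The summed intensity of 4 root markers was 3732 to 4208 in Dagad deshi controls and 7246 to 9900 in IR20 controls, and it reached 12321 to 15195 in IR20 at 6 h. It was 4511 to 5098 and 4751 to 5506 in Dagad deshi at 3 h and 6 h. The root markers Lsi1, Lsi2 and PT8 carried this sum, and NRT2.3 lay at 6.65 to 50.5. Of these 4 markers, 1 was called higher and 1 lower in Dagad deshi at 3 h, and 2 higher at 6 h. In IR20 2 were called higher at 3 h and 3 at 6 h. Of all probe sets, 23.6% and 24.7% were called higher in Dagad deshi and 14.9% and 20.4% in IR20. With the index in the fit, 1 marker was called higher at 6 h in Dagad deshi and 3 in IR20. In that fit 18.4% and 34.4% of all probe sets were. The part of these marker levels in the results below was not tested. In whole seedlings, fewer cells of a type and less RNA per cell cannot be told apart.

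The eIF4A-III gene RH34 fell under drought in both cultivars, to 0.559 of its control intensity at 6 h in Dagad deshi and 0.558 in IR20. In Dagad deshi controls its intensity was 5232, 4299 and 4333, against 2370, 2776 and 2734 at 3 h and 2709, 2376 and 2671 at 6 h. In IR20 controls it was 4382, 4621 and 4959, against 2990, 3062 and 2867 at 3 h and 2449, 2628 and 2709 at 6 h. The lowest control array of either cultivar lay above every drought array. The log2 change in Dagad deshi was -0.81 at 3 h (SE 0.0854, limma adjusted p = 9.99e-07) and -0.83 at 6 h (adjusted p = 7.24e-07). In IR20 it was -0.64 at 3 h (SE 0.0854, limma adjusted p = 2.37e-05) and -0.84 at 6 h (adjusted p = 9.50e-07). On the linear scale the controls were 1.76-fold and 1.79-fold above the 3 h and 6 h groups in Dagad deshi, and 1.57-fold and 1.79-fold above them in IR20. In a fit that also held the 3'/5' index, the 4 log2 changes were -0.67, -0.70, -0.58 and -0.76 in the same order, and all stayed under the threshold of the adjusted p. These changes were within the lower 12.4% to 16.4% of all probe sets tested, so falls of this size were common on these arrays.

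RH34 showed no called difference between the cultivars. The control means were 4621 ± 529 in Dagad deshi and 4654 ± 290 in IR20 (SD, n = 3 each), a log2 difference of 0.01 (95% interval -0.17 to 0.20, limma adjusted p = 0.904). The drought responses of the cultivars differed by 0.17 at 3 h (interval -0.09 to 0.43) and by -0.01 at 6 h (interval -0.27 to 0.25). At 3 h the 3 IR20 arrays were above the 3 Dagad deshi arrays, but the log2 difference of 0.18 was not called (limma adjusted p = 0.132). From 3 h to 6 h the log2 change was -0.02 in Dagad deshi and -0.20 in IR20, and neither was called (limma adjusted p = 1.000 and 0.123), though in IR20 the arrays of these times did not overlap.

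**Figure D1:**
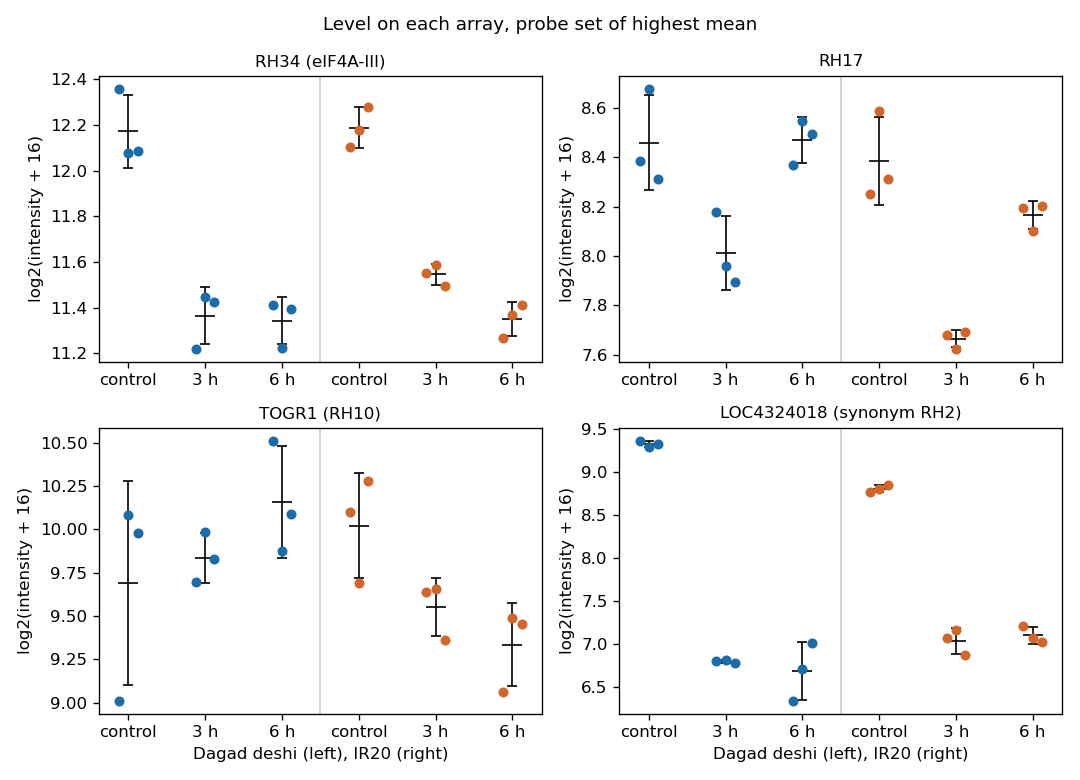
Level of the 4 genes on each array by the probe set of highest mean, as log2(intensity + 16), in Dagad deshi (blue) and IR20 (orange), for controls, 3 h and 6 h of drought. Points are arrays and bars the mean ± SD of 3 arrays, and each panel has its own scale. RH34 and LOC4324018 are lower on every drought array than on any control array, RH17 is lowest at 3 h, and the control arrays of TOGR1 overlap with the drought arrays in Dagad deshi.

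TOGR1, the nucleolar helicase, has 3 probe sets, and they did not give the same picture. The one of highest mean measured 500, 1067 and 996 in Dagad deshi controls, 813, 998 and 893 at 3 h, and 1442, 923 and 1072 at 6 h. In IR20 it measured 1081, 809 and 1227 in controls, 781, 792 and 642 at 3 h, and 519, 702 and 687 at 6 h. The groups overlapped in Dagad deshi, where control replicate 1 was the lowest of the 9 arrays, and in IR20 every drought array was below every control array. The log2 changes in Dagad deshi, 0.14 at 3 h (SE 0.253, limma adjusted p = 0.627) and 0.47 at 6 h (adjusted p = 0.113), were not called. Without Dagad deshi control replicate 2 the change at 6 h was 0.66 and was called (limma adjusted p = 0.0405), opposite in sign to the other probe sets of the gene. In IR20 the change of -0.47 at 3 h was not called (SE 0.253, limma adjusted p = 0.186), and the change of -0.69 at 6 h was (adjusted p = 0.0381). That call was lost when IR20 control replicate 1 or 3, or IR20 6 h replicate 1 or 3, was left out, with adjusted p-values of 0.0963, 0.137, 0.143 and 0.0556.

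The other probe sets of TOGR1 fell in all 4 comparisons with a control. The one of lowest mean measured 679, 624 and 605 in Dagad deshi controls, 207, 188 and 198 at 3 h, and 178, 210 and 162 at 6 h. In IR20 it measured 319, 393 and 454 in controls, 135, 158 and 138 at 3 h, and 144, 102 and 110.5 at 6 h. No drought array reached the lowest control array of its cultivar. Its log2 changes were -1.61 and -1.71 in Dagad deshi and -1.33 and -1.59 in IR20 at 3 h and 6 h (SE 0.135, limma adjusted p from 3.81e-08 to 1.65e-06). The probe set of middle mean is of the _s_at kind, whose probes can bind more than 1 transcript, and had log2 changes of -1.30, -1.09, -1.003 and -1.27 in the same order (SE 0.0998, limma adjusted p from 2.85e-08 to 1.33e-06). Its group means were 956 ± 38.6, 378 ± 6.22 and 440 ± 16.9 in Dagad deshi and 600.1 ± 107, 289 ± 22.9 and 237 ± 15.0 in IR20, for control, 3 h and 6 h (SD, n = 3).

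The change read from the TOGR1 probe set of highest mean differed between fits. In the fit that held the 3'/5' index, its log2 changes were -1.19 and -0.84 in Dagad deshi and -1.10 and -1.47 in IR20 at 3 h and 6 h, all called (limma adjusted p from 1.05e-05 to 0.0108). Without Dagad deshi control replicate 1, the array of the highest index, its 3 h change in Dagad deshi was -0.20 (limma adjusted p = 0.413) in place of 0.14. Without replicate 2, whose index was 5.75, this change was 0.34. Whether RNA quality had a part in this was not tested. The other 2 probe sets moved less, to -1.34, -1.45, -1.21 and -1.43 and to -1.12, -0.91, -0.92 and -1.16, and all stayed called. For TOGR1 a fall in IR20 at 6 h is therefore the only change under drought called by all 3 probe sets without the index in the fit.

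**Figure D2:**
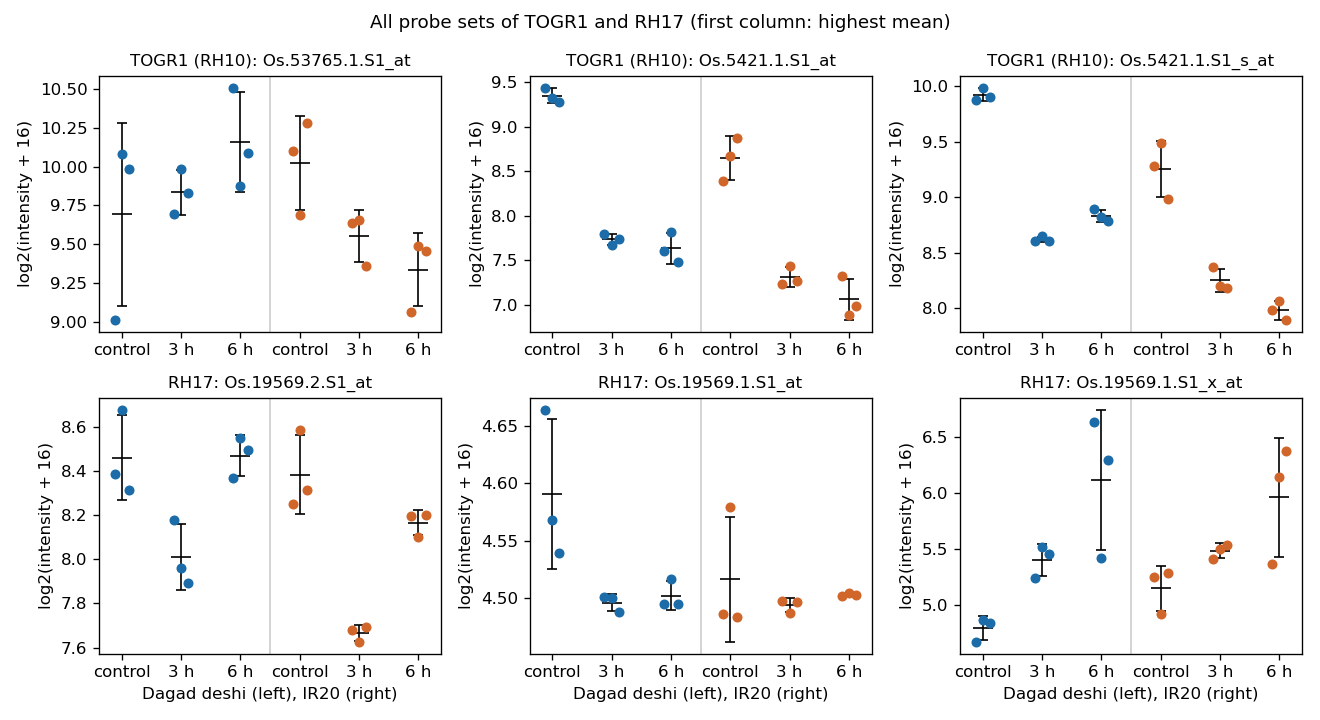
All probe sets of TOGR1 (upper row) and RH17 (lower row), as log2(intensity + 16) on each array, in Dagad deshi (blue) and IR20 (orange), with the mean ± SD of 3 arrays and a separate scale for each panel. The probe sets of TOGR1 in the middle and on the right fall in both cultivars, while the one of highest mean on the left spans about 9.0 to 10.1 in Dagad deshi controls alone.

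RH17 fell at 3 h in both cultivars and rose again between 3 h and 6 h. In Dagad deshi its intensity was 319, 393 and 302 in controls, 274, 233 and 222 at 3 h, and 314, 358 and 344 at 6 h. In IR20 it was 289, 369 and 302 in controls, 189, 181 and 191 at 3 h, and 277, 259 and 278 at 6 h. The 3 h arrays lay below all control arrays and all 6 h arrays of their cultivar. At 3 h the log2 change was -0.45 in Dagad deshi (SE 0.109, limma adjusted p = 0.0024) and -0.72 in IR20 (adjusted p = 8.44e-05). At 6 h it was 0.01 in Dagad deshi (limma adjusted p = 0.937) and -0.22 in IR20 (adjusted p = 0.125), neither of them called, though in IR20 the 3 arrays at 6 h were all below the lowest control. With the index in the fit these 6 h changes were 0.18 and -0.12 and were not called either.

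The rise of RH17 from 3 h to 6 h was estimated without any control array. Its SE and p-values draw on the spread within all 6 groups, controls included. The rise was 0.46 in Dagad deshi (SE 0.109, limma adjusted p = 0.0129) and 0.50 in IR20 (adjusted p = 0.0030), or 1.40-fold and 1.45-fold on the linear scale. RH17 was the 1 gene of the 4 called higher in this comparison, where 5.33% of all probe sets were called higher in Dagad deshi and 10.9% in IR20. The call in Dagad deshi was lost without Dagad deshi 3 h replicate 2 (adjusted p = 0.0508) or 3 (adjusted p = 0.0654). With the index in the fit the rises were 0.46 and 0.52 and stayed called, while the 3 h change in Dagad deshi was -0.28 and was not called (limma adjusted p = 0.337) and that in IR20 was -0.64 and was (adjusted p = 0.0020). At 3 h RH17 was lower in IR20 than in Dagad deshi, by a log2 difference of -0.35 (limma adjusted p = 0.0224). That call was lost without Dagad deshi 3 h replicate 1 (adjusted p = 0.114) or IR20 3 h replicate 1 or 2 (0.0516 and 0.0705). The responses of the cultivars did not differ by a called amount (-0.27 at 3 h, 95% interval -0.60 to 0.06, and -0.23 at 6 h, interval -0.56 to 0.10). Without Dagad deshi control replicate 2 the difference of the 3 h responses was called (-0.38, limma adjusted p = 0.0360).

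The 2 dimmer probe sets of RH17 did not follow this course. The dimmest lay at 6.36 to 9.36 on all 18 arrays, near the array medians of 7.13 to 8.20. The other is of the _x_at kind, open to cross-hybridisation, and rose at 6 h from 11.7 ± 2.01 to 57.4 ± 28.6 in Dagad deshi and from 19.7 ± 4.76 to 48.8 ± 21.5 in IR20 (SD, n = 3). At 3 h, where the probe set of highest mean fell, this one measured 26.4 ± 4.08 in Dagad deshi and 28.7 ± 2.04 in IR20. Every 3 h array of this probe set was above every control array of its cultivar. Its log2 changes at 6 h were 1.32 in Dagad deshi (SE 0.272, limma adjusted p = 6.95e-04) and 0.81 in IR20 (adjusted p = 0.0243). With the index in the fit they were 0.58 and 0.37 and were not called (limma adjusted p = 0.391 and 0.386). The 3 h changes in that fit were -0.14 and -0.02 and were not called either.

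LOC4324018 had the largest fall of the 4 genes in both cultivars. In Dagad deshi its intensity was 643, 612 and 626 in controls, 95.1, 96.1 and 93.3 at 3 h, and 64.7, 88.6 and 113 at 6 h. In IR20 it was 421, 431 and 446 in controls, 118, 127 and 101 at 3 h, and 132, 118 and 114 at 6 h. Control and drought arrays were far apart, and the control arrays of the cultivars did not overlap either. The log2 changes in Dagad deshi were -2.54 at 3 h (SE 0.131, limma adjusted p = 3.65e-10) and -2.64 at 6 h (adjusted p = 2.05e-10). In IR20 they were -1.78 at 3 h (SE 0.131, limma adjusted p = 5.94e-08) and -1.71 at 6 h (adjusted p = 4.29e-08). On the linear scale the controls were 6.61-fold and 7.07-fold above the 3 h and 6 h groups in Dagad deshi, and 3.75-fold and 3.57-fold above them in IR20. Of all probe sets tested, 2.24%, 2.41%, 1.06% and 4.10% fell by this much or more in the 4 comparisons. With the index in the fit the 4 log2 changes were -2.42, -2.53, -1.72 and -1.65, and all stayed called.

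The fall of LOC4324018 was smaller in IR20 than in Dagad deshi. The difference of the responses was 0.76 at 3 h (SE 0.185, limma adjusted p = 0.0051) and 0.93 at 6 h (adjusted p = 0.0019). The drought markers, already higher in IR20 controls, also responded less in IR20 (6 of 7 called at each time), and their part in this difference was not tested. With the index in the fit these were 0.70 and 0.89 and stayed called (limma adjusted p = 0.0264 and 0.0064). Its level was lower in IR20 than in Dagad deshi controls (-0.52, SE 0.131, limma adjusted p = 0.0050) and higher at 6 h (0.41, adjusted p = 0.0352). The difference at 6 h was lost when any of 5 arrays was left out, namely each replicate of IR20 at 6 h and Dagad deshi 6 h replicates 1 and 2, with adjusted p-values from 0.0546 to 0.162, and with quantile normalization (0.0528), with a replicate block (0.0544) and with only the groups compared in the fit (0.214). At 3 h the difference of 0.24 was not called (limma adjusted p = 0.206), though the arrays of the cultivars did not overlap. Between 3 h and 6 h the log2 change was -0.11 in Dagad deshi and 0.07 in IR20, and neither was called.

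**Figure D3:**
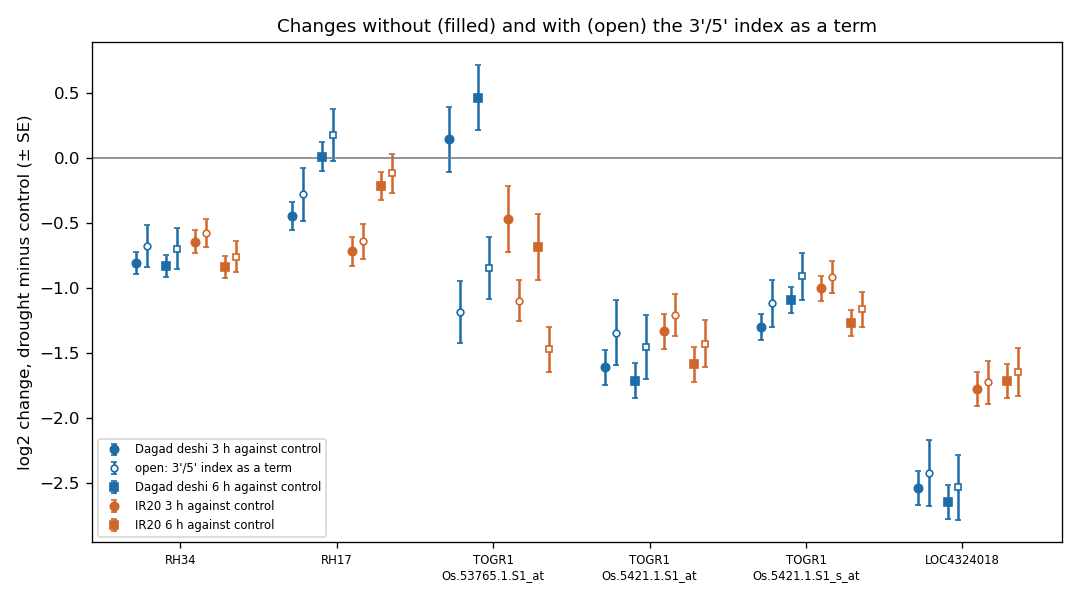
Log2 change ± SE from control to drought for 6 probe sets of the 4 genes, by limma, without (filled) and with (open) the index as a covariate, at 3 h (circles) and 6 h (squares) in Dagad deshi (blue) and IR20 (orange). The changes of RH34, LOC4324018 and the 2 dimmer probe sets of TOGR1 keep their sign in both fits, and the probe set of highest mean of TOGR1 moves from 0.14 to -1.19 at 3 h in Dagad deshi.

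Counted over the 4 genes by the probe set of highest mean, 3 fell in Dagad deshi at 3 h (RH34, RH17 and LOC4324018), where 47.3% of all probe sets were called lower. At 6 h 2 fell in Dagad deshi (RH34 and LOC4324018), against 45.7% of all probe sets. In IR20 3 fell at 3 h (RH34, RH17 and LOC4324018) and 3 at 6 h (RH34, TOGR1 and LOC4324018), against 21.9% and 25.5%. None of the 4 was called higher by limma, and 0 were higher at an unadjusted p under 0.05, against 23.6%, 24.7%, 14.9% and 20.4% of all probe sets in the order Dagad deshi 3 h, Dagad deshi 6 h, IR20 3 h and IR20 6 h. In either direction 70.9% and 70.4% of all probe sets were called in Dagad deshi and 36.8% and 45.9% in IR20, so that a call in itself sets a gene little apart. With 4 genes, of which LOC4324018 is tied to the family by its name alone, such counts allow no statement on the family.

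The cultivars differed in 1 of the 4 genes in controls (LOC4324018, where 53.1% of all probe sets were called), in 1 at 3 h (RH17, 34.2%) and in 2 at 6 h (LOC4324018 and TOGR1, 22.1%). The difference of responses was called for 1 gene at 3 h (LOC4324018, 48.2%) and for 2 at 6 h (LOC4324018 and TOGR1, 43%). For TOGR1 the probe set of highest mean was lower in IR20 than in Dagad deshi at 6 h by -0.82 (SE 0.253, limma adjusted p = 0.0300), and its 6 h responses differed by -1.15 (SE 0.357, adjusted p = 0.0206) or, with the index in the fit, by -0.63 (adjusted p = 0.0278). The difference at 6 h was lost without replicate 1 or 3 of either 6 h group (limma adjusted p from 0.0527 to 0.138) and with quantile normalization (0.0517). The difference of responses was lost without IR20 control replicate 3 or replicate 1 of either 6 h group (limma adjusted p from 0.0514 to 0.0539) and with only the groups compared in the fit (0.0614). The difference of responses was not called by the other 2 probe sets of TOGR1 (0.13 and -0.18, limma adjusted p = 0.607 and 0.314). Both of these were lower in IR20 in controls (-0.70 and -0.67), at 3 h (-0.42 and -0.37) and at 6 h (-0.57 and -0.85), all called.

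Other genes of RNA processing, translation and small RNA pathways were described by lists matched by name. Whether each of them works with the 4 genes was not tested. Of 7 genes for exon junction partners and SR splicing factors, 4 fell at each time in either cultivar, and 1 rose in IR20 at 6 h. Of all probe sets, 47.3% and 45.7% were called lower in Dagad deshi at 3 h and 6 h and 21.9% and 25.5% in IR20. The median log2 changes were -0.81, -0.61, -0.55 and -0.42 in the order of the comparisons above, where the medians of all probe sets tested were -0.03, -0.03, 0.00 and 0.01. MAGO1 and Y14b, which encode the Mago and Y14 subunits that bind eIF4A-III, fell in all 4 comparisons. The log2 changes of MAGO1 were -0.81, -0.88, -0.62 and -0.79, and those of Y14b were -1.30, -0.61, -0.72 and -0.34 (limma adjusted p at most 0.0306). MAGO2 fell in IR20 (-0.65 and -0.42, limma adjusted p = 0.0053 and 0.0475), and its changes of -0.22 and -0.22 in Dagad deshi were not called. The splicing factor gene SC34 fell in all 4 (-0.81, -0.97, -0.55 and -0.77), and RSZ21A was the 1 that rose (1.02 in IR20 at 6 h, limma adjusted p = 0.0160). When the index was in the fit, 3 and 2 of the 7 fell in Dagad deshi at 3 h and 6 h, and 4 and 3 in IR20. In that fit 21%, 21.2%, 20.7% and 24.4% of all probe sets were called lower. None of the 7 was called higher there, RSZ21A in IR20 at 6 h included.

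Of 4 genes for eIF4 translation initiation factors, 2 encode eIF4A, a DEAD-box protein that is not named RH in the table. Of these, eIF-4A-3 fell in all 4 comparisons (-0.88, -1.02, -0.61 and -0.93, limma adjusted p at most 1.69e-04). eIF-4A-1 rose in Dagad deshi (0.74 and 0.91, limma adjusted p = 0.0078 and 0.0021), and its changes of 0.03 and -0.04 in IR20 were not called. The cap-binding factor gene eIF-4E-1 rose in Dagad deshi (0.69 and 0.56), and the scaffold gene eIF-4G rose there (0.42 and 0.57) and in IR20 at 6 h (0.34, limma adjusted p = 0.0330). Of all probe sets, 23.6%, 24.7%, 14.9% and 20.4% were called higher and 47.3%, 45.7%, 21.9% and 25.5% lower in the 4 comparisons. The fit with the index called 1 of the 4 genes higher and 1 lower at each time in Dagad deshi. In IR20 it called none higher and 2 lower at each time. In that fit 17.7%, 18.4%, 19.3% and 34.4% of all probe sets were called higher and 21%, 21.2%, 20.7% and 24.4% lower. The list median in Dagad deshi at 3 h and 6 h was 0.55 and 0.56 without the index and -0.13 and 0.04 with it.

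Of 23 ribosomal protein genes, in Dagad deshi 18 fell after 3 h and 19 after 6 h, in IR20 16 and 19, and none was called higher by limma (0 at an unadjusted p under 0.05). Their median log2 changes were -0.59, -0.72, -0.38 and -0.78, beside medians of -0.03, -0.03, 0.00 and 0.01 over all probe sets, of which 47.3%, 45.7%, 21.9% and 25.5% were called lower. The fit with the index called 21, 22, 18 and 21 of the 23 lower, where 21%, 21.2%, 20.7% and 24.4% of all probe sets were. Among them RPS4, a protein of the small subunit, changed by -0.83, -0.95, -0.52 and -0.86, and RPL11 of the large subunit by -0.98, -0.91, -0.53 and -0.92, all called. RPL27 had falls of -1.60 and -2.21 in Dagad deshi and -1.06 in IR20 at 6 h, and its -0.14 in IR20 at 3 h was not called. Of 13 tested genes for Dicer-like proteins, which hold a helicase domain of another kind, and their Argonaute partners, 3 rose and 4 fell in Dagad deshi at 3 h, and 3 rose and 6 fell at 6 h. In IR20 3 rose and none fell at 3 h by limma (1 was lower at an unadjusted p under 0.05), and 2 rose and 5 fell at 6 h. These counts lay near or below the shares of all probe sets in Dagad deshi (23.6% and 24.7% higher, 47.3% and 45.7% lower), and in IR20 14.9% and 20.4% of all probe sets were higher and 21.9% and 25.5% lower. When the index was in the fit, 1 rose and 3 fell at 3 h and 3 rose and 4 fell at 6 h in Dagad deshi, and 2 rose at 3 h and 2 rose and 6 fell at 6 h in IR20. In that fit 17.7%, 18.4%, 19.3% and 34.4% of all probe sets were called higher and 21%, 21.2%, 20.7% and 24.4% lower. DCL4, a Dicer-like gene, fell in Dagad deshi (-0.87 and -0.61) and in IR20 at 6 h (-0.71). No gene matched the list of chloroplast CRM splicing factors.

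**Figure D4:**
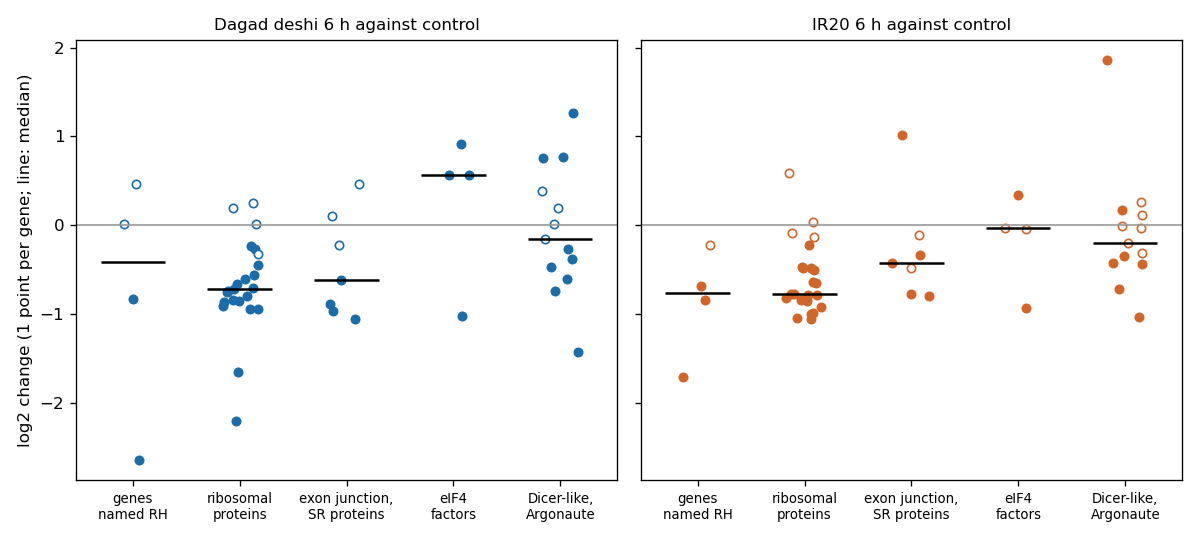
Log2 change at 6 h of drought against control for the 4 genes chosen by an RH name, LOC4324018 included, and the listed genes in Dagad deshi (left) and IR20 (right), 1 point per gene by the probe set of highest mean, filled where called by limma, with the median as a line. The ribosomal protein genes lie mostly below 0 in both cultivars (19 of 23 fell in each), and the eIF4 genes have 3 points above 0 in Dagad deshi.

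The genes most like LOC4324018, the gene with the largest mean fall, were sought among 2332 described genes by Pearson correlation over the 18 arrays. They were CCAMK (r = 0.992), a calcium- and calmodulin-dependent kinase gene of root symbiosis, OsRR2 (r = 0.985), a cytokinin response regulator gene, and AT1 (r = 0.982). For RH34 the highest were ta7 (r = 0.986), GEP (r = 0.980) and AGPR (r = 0.979), and for RH17 and TOGR1 the highest values were 0.872 (pTUB22) and 0.844 (GL2-3). The 18 arrays fall into the same 6 groups for every gene and share the gap in the 3'/5' index, so these values are a description. The same search was extended to RH34, RH17 and TOGR1 after their values were seen.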

How the data were processed

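The authors hybridised RNA labelled by a 3' method to the Affymetrix rice array and deposited 1 linear intensity per probe set. The submitters' processing notes name GCOS, with no version. How probes were summarized and arrays scaled is not given in the sources used here. The number of arrays limits the precision. From the deposited intensities, log2(intensity + 16) was computed, 104 control probe sets were left out, 19 of 4 reference families were kept, and limma 3.58.1 was run on the 40094 probe sets whose mean exceeded the 30th percentile, in R 4.3.3 (eBayes with a trend, 6 group means, 18 arrays). The script was tested on simulated data. Genes were named through RefSeq ASM3414082v1. The genes and the lists were chosen with earlier results of these data known, and with 4 genes all were described, so the rule for named genes (the largest falls and rises, differences of responses, changes from 3 h to 6 h and differences between controls) left none out. Listed genes with values and the extended likeness search were chosen after their values were seen.

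The alternatives were quantile normalization, median centring, a pseudocount of 1 or 64, a filter at the 60th percentile or none, a constant variance prior, a replicate block, only the groups compared, array weights, the 3'/5' index as a covariate, omitting the 2 controls whose index was highest, omitting _s_at and _x_at probe sets, averaging the probe sets of a gene, and leaving out each array.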

Additional observations from a re-analysis of the deposited data

Results flagged for a closer look

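LOC4324018 fell less in IR20 than in Dagad deshi, and the test of the difference itself passed the threshold at both times: the log2 responses differed by 0.76 at 3 h and by 0.93 at 6 h (limma adjusted p = 0.0051 and 0.0019), and these 2 differences share the control arrays. Of all probe sets, 48.2% and 43% were called in the same tests. LOC4324018 is tied to the helicase family by its name alone. The IR20 level of LOC4324018 differed from that of Dagad deshi by -0.52 in controls, and its difference of 0.24 at 3 h was not called. For TOGR1, the responses at 6 h differed by -1.15 by its probe set of highest mean (limma adjusted p = 0.0206), and the other 2 probe sets of the gene gave 0.13 and -0.18, neither of them called.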

How the results depend on the processing

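The falls of RH34 and LOC4324018 in the 4 comparisons with a control kept their direction and their call under every alternative run and without any single array. RH17 and TOGR1 depended on the choices, and the causes were not tested. The precision is limited by 3 arrays a group, and the Dagad deshi controls had the widest spread for TOGR1 by its probe set of highest mean (SD 0.59 on the log2 scale).

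Averaging all probe sets of a gene gave TOGR1 changes of -0.92 and -0.78 in Dagad deshi at 3 h and 6 h and a control difference of -0.35, all called and opposite in sign to the probe set of highest mean. It gave RH17 changes of 0.023 for the 3 h group of Dagad deshi and 0.19 for the 6 h group of IR20, and a control difference of 0.070. The counts of genes called became 4 for Dagad deshi at 6 h, 2 for IR20 at 6 h against 3 h and 2 for the controls. In the main fit 70.4%, 25.5% and 53.1% of all probe sets were called in these comparisons. Apart from the fit with the index, these shares are not given here for the alternatives, so their counts are no result on the genes. With the 3'/5' index in the fit TOGR1 had -1.19 and -0.84 in Dagad deshi, -0.12 between controls and 0.088 for the difference of the 3 h responses, RH34 had -0.0011 between cultivars at 6 h, and 2 genes were called in IR20 at 6 h against 3 h (RH17 and TOGR1). In that comparison and fit 29.4% of all probe sets were called. Without the 2 control arrays of the highest index TOGR1 had -0.20 at 3 h and RH17 -0.026 at 6 h in Dagad deshi. Array weights gave TOGR1 -0.10 in Dagad deshi at 3 h, and 2 calls each for IR20 at 6 h against 3 h and for the cultivars at 3 h. Quantile normalization gave RH34 -0.10 between controls and 0.14 for the difference of the 6 h responses, 0 calls between cultivars at 6 h (2 as reported by limma, LOC4324018 and TOGR1, with adjusted p = 0.0528 and 0.0517 here) and 2 for the difference of the 3 h responses. Fitting only the groups compared gave 2 calls for IR20 at 6 h against 3 h (RH17 and RH34) and 1 for the difference of the 6 h responses. With the replicate number as a block, 1 gene was called between cultivars at 6 h, where LOC4324018 lost its call (limma adjusted p = 0.0544), and the other counts did not move by over 1.5 times. The call of TOGR1 in IR20 at 6 h was lost with the block, with no filter and with quantile normalization (limma adjusted p = 0.0515, 0.0523 and 0.0593). The numbers were not used to pair the samples in the main fit. Deviations correlated above 0.1 in 12 of 45 same-numbered pairs and in 30 of 90 differently numbered pairs. These counts do not show whether the numbers pair samples.

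With each array left out in turn, the counts ran from 0 to 1 for Dagad deshi at 6 h against 3 h and for the cultivars at 3 h, from 0 to 3 for the cultivars at 6 h, from 1 to 2 for the difference of the 3 h responses (RH17 added without Dagad deshi control replicate 2) and from 1 to 2 for that of the 6 h responses. In Dagad deshi TOGR1 ran from -0.20 to 0.34 at 3 h, RH17 from -0.062 to 0.12 at 6 h, RH34 from -0.094 to 0.038 and LOC4324018 from -0.27 to 0.066 between 3 h and 6 h. In IR20 LOC4324018 ran from -0.016 to 0.13 between 3 h and 6 h. Between controls RH34 ran from -0.035 to 0.11, TOGR1 from -0.0093 to 0.52 and RH17 from -0.18 to 0.034. RH34 ran from -0.052 to 0.048 between cultivars at 6 h and from -0.10 to 0.042 for the difference of the 6 h responses. These values that changed sign were called neither with all arrays nor without any 1 array.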
